A study of Mus musculus with 2 samples.

Results

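The microRNA miR-342 was followed through its 2 mature products, miR-342-3p (probe MIMAT0000590) and miR-342-5p (probe MIMAT0004653), which are 2 of the 739 probes of a mouse microRNA array. The probes were picked by accession, with their readings on these arrays already known, so every difference between the lines given for them is a description and carries no test. LY-1 is the metastatic derivative of Pam212, and Pam212 is a non-metastatic epidermal keratinocyte line from Balb/c mice that transformed spontaneously. Neither line was treated, both were grown to confluency in DMEM with 10% FCS, and 1 plate of each line gave total RNA for 1 array. No second plate or array of either line was measured, each line stands for itself alone, and a fold between them cannot be set against a spread between cultures. In total RNA from a culture, fewer cells that express a microRNA and less of it in every cell cannot be told apart.

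A microRNA hairpin is cut from a longer transcript and then into a short duplex, of which either strand can be loaded into an Argonaute protein. The loaded strand pairs with messenger RNAs mainly through its seed, bases 2 to 8, and lowers their output. The miR-342 hairpin lies in an intron of Evl, whose product is an Ena/VASP-family protein that promotes growth of actin filaments, and an intronic hairpin of this kind can be made from the transcript of its host gene. In human colorectal cancer, the EVL gene and miR-342 have been reported as silenced together by promoter methylation, and in human tissues miR-342-3p is known as a microRNA of blood leukocytes. Neither Evl messenger RNA nor DNA methylation was measured on these arrays.

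The sequences of both arms are shown because each is the mature product after which a probe is named, and their seeds differ. The mature sequences follow 5′ to 3′, with the seed in capitals, as RefSeq gives them for mouse build GRCm38.p6.
miR-342-3p: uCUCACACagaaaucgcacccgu
miR-342-5p: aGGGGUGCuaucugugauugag
In the hairpin, also from RefSeq, the capitals mark the 5p arm first and the 3p arm after the loop.
Mir342 hairpin: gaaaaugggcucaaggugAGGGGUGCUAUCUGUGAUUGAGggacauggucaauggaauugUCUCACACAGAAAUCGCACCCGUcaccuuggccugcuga

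The hairpin of 99 bases lies at chr12:108658620-108658718 on the plus strand. The 5p arm covers chr12:108658638-108658659 and the 3p arm chr12:108658680-108658702, with 20 bases between them. Both lie inside Evl, which spans chr12:108554681-108688516 and has its annotated promoters on the same strand. The hairpin starts 103939 bases after the start of the gene, 77.7% of the way along its 133836 bases. The nearest other microRNA hairpin on the chromosome in the RefSeq table is Mir345, which starts 178353 bases further along, so the 2 arms of miR-342 have no close neighbour in a cluster. The next, Mir770, starts 905072 bases away.

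The arms are alike in length and base content and unlike in sequence. miR-342-3p has 23 bases and a GC content of 52.2%, and miR-342-5p has 22 bases and 50.0%, against a median of 52.2% over 1679 mature mouse names in the RefSeq table. They differ in which bases supply it. The 3p arm holds 9 C and 3 G, and the 5p arm holds 2 C and 9 G. A predicted fold of the hairpin (RNAfold) has 33 base pairs, 17 of them between the arms. No other mature mouse sequence in that table shares bases 2 to 8 with either arm. The closest other sequence stands 9 single-base edits from miR-342-3p and 7 from miR-342-5p among 1678 other names. The probe sequences themselves were not used here.

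miR-342-3p was the arm with a large difference. Its intensity was 1.75 in LY-1 and 9.66 in Pam212, in the deposited linear units. The LY-1 reading lay in the lower part of its array, and the Pam212 reading lay close to the upper quartile of its own. On the log2 scale the difference, LY-1 minus Pam212, was -2.47, a 5.53-fold lower intensity in LY-1. This was the most negative difference among the 354 probes that both arrays measured, and it is the value for which the probe was chosen.

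miR-342-5p read 0.949 in LY-1 and 1.11 in Pam212. Both readings lay at the bottom of their arrays, and the difference of -0.23 on the log2 scale, 1.17-fold lower in LY-1, was small. Of the 354 probes, 126 had a more negative difference than this arm. The description of both arms as lower in LY-1 therefore rests on 3p for its size, and for 5p gives only the sign of a small difference between very dim readings. The difference of 3p minus that of 5p was -2.24 on the log2 scale.

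How near each reading lay to the lowest value of its array sets what the fold can carry. The lowest intensity was 0.948 in LY-1 and 0.943 in Pam212, and the medians over all measured probes were 2.44 in LY-1 and 2.16 in Pam212. The LY-1 array had a value for 437 of its probes (59.1%), and the Pam212 array for 460 (62.2%). What an empty cell means, how background was treated and how duplicate spots were combined are not given in the sources used here, and no error of a single probe was used here.

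In LY-1, miR-342-3p stood 1.84-fold above the lowest value, or 0.88 on the log2 scale. It ranked 173 from the bottom of 437, with 39.4% of the measured values below it and at 0.717 times the median of the array. In Pam212 the same probe stood 10.2-fold above the lowest value, or 3.36 on the log2 scale. It ranked 345 of 460 there, with 74.8% of values below it and at 4.47 times the median. The probe was thus dim in LY-1, above the lowest value but below the median of the array. In Pam212 it was just short of the upper quartile, 9.71. With the background treatment not given, whether its LY-1 reading exceeded background is not known. Had its LY-1 reading been the lowest on the array, its log2 difference would have been -3.35, so the measured -2.47 covers most of the range open to a probe with this Pam212 reading.

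In LY-1, miR-342-5p had the third-lowest reading of the array. It stood 0.000373 units above the lowest value, with 2 values below it. Both of the probes below it had no value in Pam212, so among probes measured on both arrays no LY-1 reading was lower. In Pam212 it stood 1.18-fold above the lowest value, or 0.24 on the log2 scale, and ranked 45 of 460 with 9.57% of values below it. A probe with this Pam212 reading could not have shown a log2 difference below -0.23 and still been listed at or above the lowest LY-1 value. A larger decrease of this arm was therefore not measurable in the table, and its small difference does not show that the arms behaved unlike each other.

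**Figure D1:**
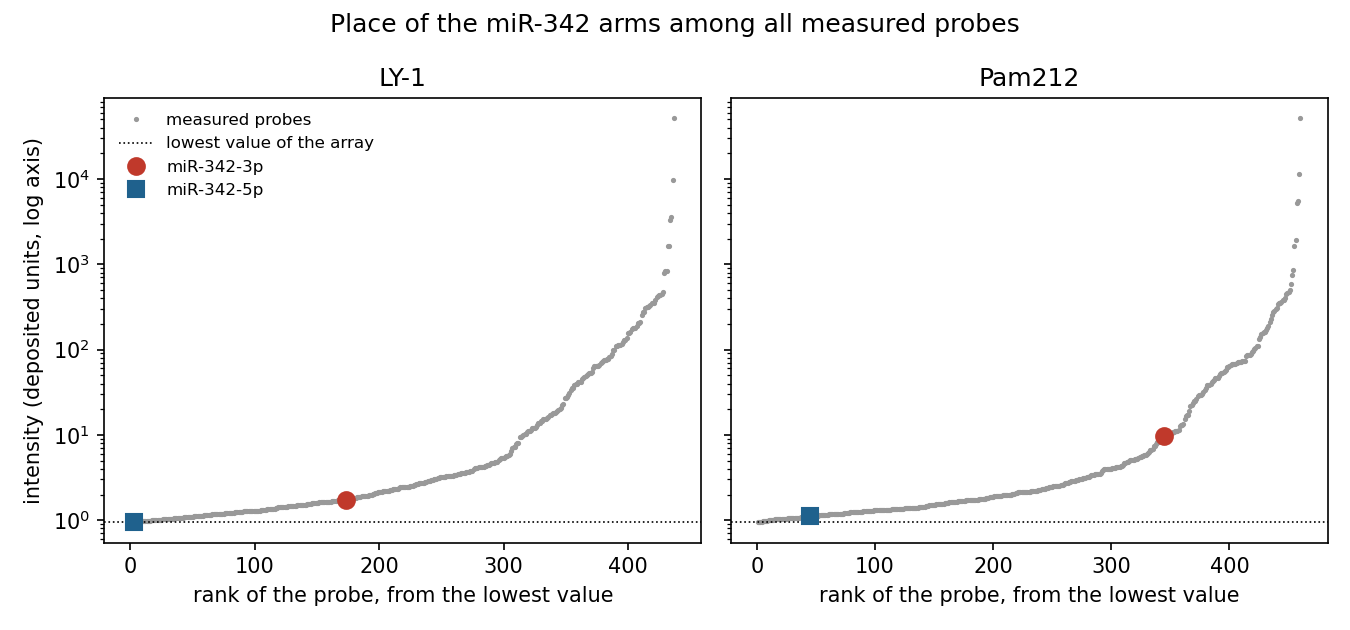
Intensity of every measured probe (log axis, deposited units) by its rank from the lowest value, with LY-1 on the left and Pam212 on the right; grey points are probes, the dotted line is the lowest value of the array, the circle is miR-342-3p and the square is miR-342-5p. miR-342-3p sits at 1.75 in LY-1 and at 9.66 in Pam212, and miR-342-5p sits on or just above the dotted line on both arrays.

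Against the other probes, miR-342-3p stood at the edge of the distribution of differences. Counts used the 252 probes whose brighter reading was at least 2.26, a limit set at the median of the pooled readings, which 3p passed through its Pam212 value and 5p did not pass. At the size threshold of 2-fold, 1 of the 2 arms, 3p, was counted lower in LY-1, beside 16 of the 252 probes (6.35%). In the other direction 32 of the 252 (12.7%) were at least 2-fold higher. Without any brightness limit, 20 of 354 probes (5.65%) were at least 2-fold lower and 33 (9.32%) at least 2-fold higher, and of the arms again only 3p was counted, as lower. Because this contrast chose the arms, their count is not read against these shares. The split of 32 higher against 16 lower depended in part on the scaling. It was 31 against 18 with a common 75th percentile and 31 against 16 with a lowess trend subtracted. After quantile normalization it was 27 against 22. With each array set to its own median, a setting chosen after seeing the data, it was 25 against 26.

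The other differences give a scale for the value of miR-342-3p. Over the 252 probes the median log2 difference was 0.03, with 5% of them below -1.11, and 122 of the 252 were below 0. On the positive side 5% of them were above 1.67, and the highest difference, 2.93, was larger in size than that of 3p. After 3p, the next most negative differences were -2.42 and -2.27. The lead of 3p over the next probe is 0.05 on the log2 scale, and with no error known for either, their order is not established.

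Because miR-342-3p was chosen for the most negative difference, no other probe measured on both arrays can be as bright in Pam212 and as low in LY-1, and the readings around it are given only to show the gap. Of 115 other probes at or above its Pam212 reading, 114 had a LY-1 value, and the lowest of these was 3.25, above the 1.75 of 3p. The remaining 1 had no LY-1 value and read 279 in Pam212. No difference can be given for it, so the place of 3p holds only among probes measured on both arrays. Among the 114, the median log2 difference was 0.10, 4 were lower in LY-1 by 2-fold or more and 11 were higher by as much.

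Seen from the LY-1 side, which restates the same choice, another 171 probes read as low as miR-342-3p or lower in LY-1, and 69 of them had no Pam212 value. The other 102 had a median Pam212 reading of 1.496 and a highest one of 6.58, against 9.66 for 3p. The mirror case existed too: 2 probes read at least 9.66 in LY-1 and no more than 1.75 in Pam212, with log2 differences of 2.50 and 2.71. The probe at 2.50 is listed for several mature microRNAs at once. A swing of this size between a dim and a moderately bright reading was therefore seen in both directions on this pair of arrays.

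**Figure D2:**
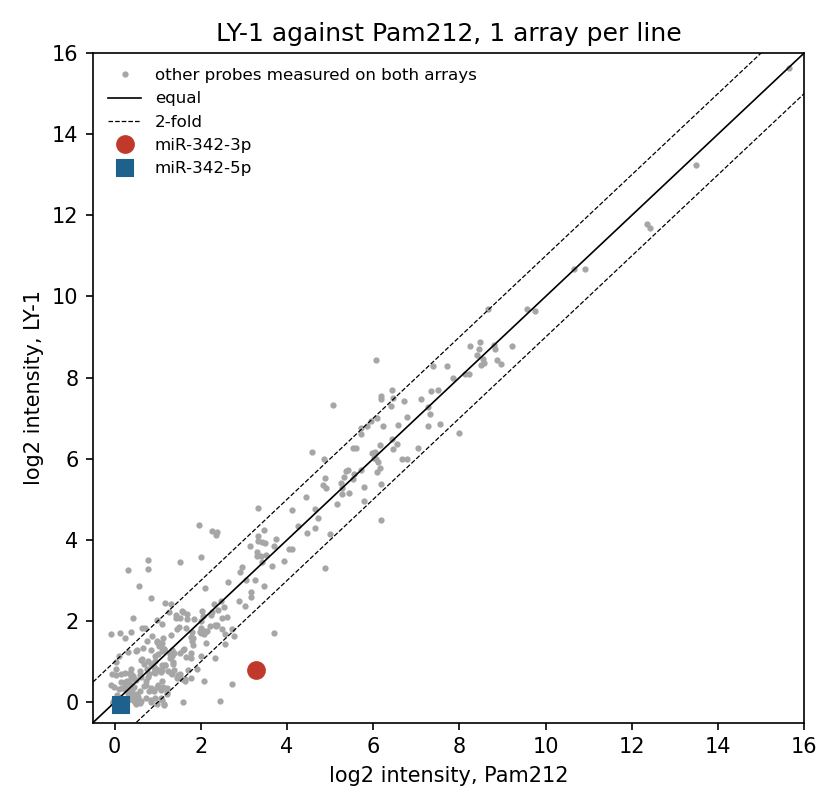
Log2 intensity in LY-1 (vertical axis) against Pam212 (horizontal axis) for the 354 probes measured on both arrays; the solid line marks equal intensity, the dashed lines 2-fold differences, the circle miR-342-3p and the square miR-342-5p. miR-342-3p lies farthest below the line of equality, at a log2 difference of -2.47, and miR-342-5p lies in the lower left corner at -0.23.

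Probes of similar Pam212 brightness spread widely. Within 2-fold of the Pam212 reading of miR-342-3p there were 51 other probes, 50 of them with a LY-1 value. Their log2 differences ran from -2.42 to 1.81, with a median of -0.16 and an SD across probes of 0.85. Of these 50 probes, 6 were at least 2-fold lower in LY-1 and 3 at least 2-fold higher. The spread across probes mixes real differences between the lines with measurement error, and 1 array per line does not separate them.

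At the dim end, where miR-342-5p lies, differences of its size were common. Of 42 probes with both readings under 1.5, miR-342-5p included, 19 (45.2%) differed by at least as much in either direction, and 13 were more negative. The SD of the difference over the 41 others was 0.25, and their differences ran from -0.53 to 0.50. The cut at 1.5 on both arrays itself limits how far such differences can go. Over 88 other probes in the dimmest quartile by mean log2 intensity, the SD was 0.56 and the range -1.59 to 1.76. The difference of -0.23 for 5p is smaller in size than either SD. With its Pam212 reading no decrease below -0.23 could be listed, so for a decrease this outcome was fixed and is not a result.

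Among probes with a Pam212 reading within 1.1-fold of that of miR-342-5p, most had no LY-1 value. Of these 65 other probes 44 were empty in LY-1, and the 21 with a value read 1.01 to 3.27 there, all above the 0.949 of 5p. Since no probe measured on both arrays read lower than 5p in LY-1, this order was given and is not a separate result. An empty cell may or may not stand for a lower level, which the table does not say.

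The probes most like each arm were found by Euclidean distance over the log2 intensities of the 2 arrays. The nearest to miR-342-3p was MIMAT0003735, at a distance of 0.66, which read 1.36 in LY-1 and 6.58 in Pam212, a log2 difference of -2.27. The second was MIMAT0003495, at a distance of 0.96, with 3.08 in LY-1 and 6.83 in Pam212. The 5 nearest probes lay 0.66 to 0.99 away and had differences from -2.27 to -1.11. Chosen as the most negative difference, miR-342-3p lies at the edge of this plane. Its distance from other probes, and their less negative differences, are therefore not a separate result. The 5 nearest to miR-342-5p lay 0.13 to 0.21 away, among many dim probes, with differences from -0.23 to 0.06. With 2 arrays, likeness of this kind says only that readings were similar, and the tables used here give these accessions no microRNA name.

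The arms can be set beside probes registered near them in miRBase, whose accession numbers run roughly in order of registration. Among the 102 other probes past the brightness limit with accession numbers under 1000, where miR-342-3p belongs, the median log2 difference was 0.30, and 71 were above 0. The lowest of them was -1.995, and 3p, chosen as the most negative of all 354 probes, lies below any such block by that choice. For miR-342-5p the 66 other probes numbered 4000 to 4999 and measured on both arrays had a median difference of 0.05, with 29 below 0 and the lowest at -1.59. The 5p arm, at -0.23, lay inside the range of its block. Its Pam212 reading was too near the lowest LY-1 value for any listed decrease to place it below that range.

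The size of the difference depended on how the bottom of the scale was treated, far more for 5p than for 3p. With a pseudocount of 1.02, the 5th percentile of all values, miR-342-3p had a log2 difference of -1.95, or 3.86-fold lower in LY-1. With the lowest value of each array subtracted, it had -3.45, or 10.9-fold lower. Under the 4 scalings that were planned it ran from -2.51 to -2.37. It remained over 2-fold lower in LY-1 under each of these treatments. Its difference was the most negative of the probes past the limit under all but the subtraction, where it ranked 4 of 251. Keeping the top place is not support, since the probe was chosen for it. A scaling that shifts every difference equally cannot change any rank.

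For miR-342-5p the pseudocount gave -0.12 and the subtraction gave -8.84, because the subtraction left 0.000373 units in LY-1 and 0.171 units in Pam212. The sign stayed negative under every treatment run, which is not support. A common pseudocount cannot turn a sign. Quantile normalization could not either, since no probe measured on both arrays read lower than 5p in LY-1. The order of the arms did not hold: with the lowest value subtracted, 5p had the more negative difference, and 3p minus 5p was 5.39 in place of -2.24. No fold can be given for 5p that does not rest on this choice.

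**Figure D3:**
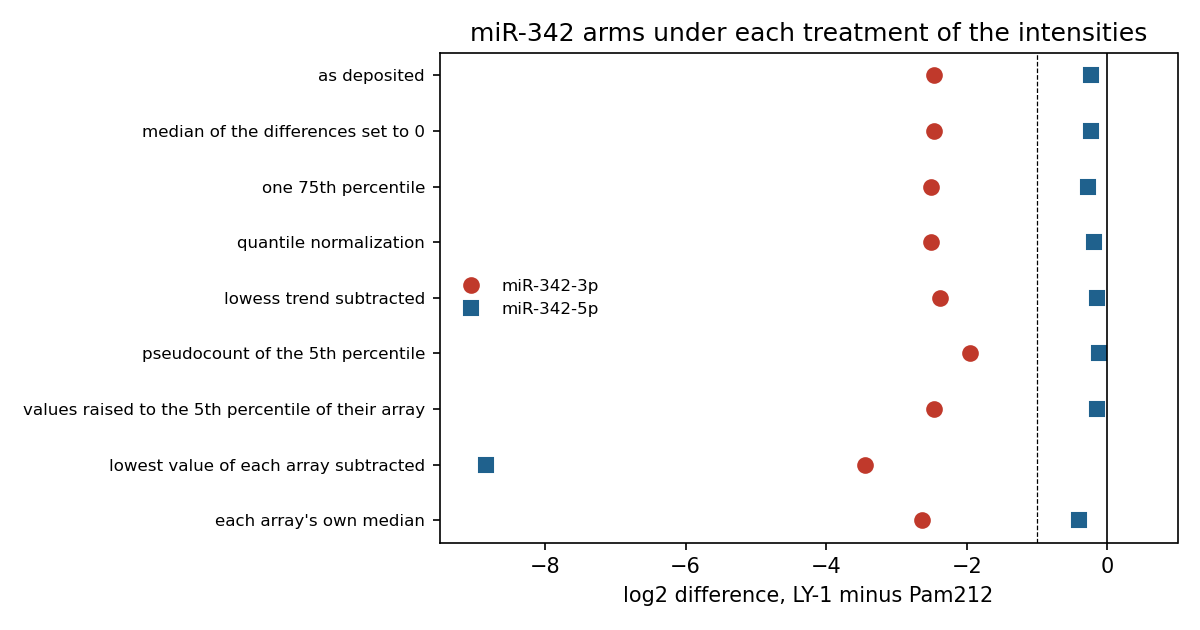
Log2 difference, LY-1 minus Pam212, of miR-342-3p (circles) and miR-342-5p (squares) under each treatment of the intensities; the solid line marks no difference and the dashed line a 2-fold lower intensity in LY-1. miR-342-3p lies between -3.45 and -1.95 throughout, whereas miR-342-5p lies between -0.40 and -0.12 except at -8.84 when the lowest value of each array is subtracted.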

How the data were processed

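Per the labels' protocols, total RNA from a miRNA column kit was labelled with the dye Hy5 (miRCURY LNA labelling kit). The authors deposited 1 linear intensity per probe and array. The scanner, the background treatment, the combining of spots and the scaling are not given in the sources used here. Medians over the 354 probes measured on both arrays were 3.31 in LY-1 and 3.21 in Pam212, 0.05 apart on the log2 scale, so values were used as deposited. Differences are log2 LY-1 minus log2 Pam212 with no pseudocount. With 1 array per line no test was run, and the number of arrays limits the precision. Counts used a size threshold of 2-fold and the brightness limit of 2.26. The members, lists and alternatives were chosen with earlier results of these data known. By the rule for named probes, the 5 nearest of each arm were described, and 2 are printed because accessions lack names. The comparison of arm pairs of other hairpins, the lists of other intronic and neighbouring microRNAs and the marker microRNAs of leukocytes, epithelium and mesenchyme were not analysed here, since the tables used do not pair accessions with names. For the same reason the keratinocyte identity of the lines was not checked against markers. The names of the 2 arms came with the choice of probes, and their sequences from RefSeq by name. Python 3.11.15, numpy 2.4.6, pandas 2.3.3, statsmodels 0.14.6 (lowess, span 0.5), matplotlib 3.10.9 and ViennaRNA 2.7.2 were used. On simulated data without noise or empty cells, only the calculation of the log2 difference as deposited was checked.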

Additional observations from a re-analysis of the deposited data

How the results depend on the processing

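With 1 array per line no replicate could be left out, and no value has an error. No paired analysis was possible because each line has 1 array. Against -2.47 as deposited, miR-342-3p had -1.95 with the pseudocount, -3.45 with the lowest value of each array subtracted, and -2.64 with each array set to its own median, a setting chosen after seeing the data that moved the median of all differences to -0.18. miR-342-5p, at -0.23, had -0.12, -8.84 and -0.40 under the same settings. The other 5 settings moved either arm by less than 0.1. The difference of 3p minus that of 5p, -2.24, was -1.83 with the pseudocount and turned to 5.39 with the subtraction, since subtraction leaves almost nothing of the LY-1 reading of 5p. The 16 probes at least 2-fold lower became 8 with the pseudocount, 31 with the subtraction and 26 with own medians. With the limit at the 75th percentile 4 were lower and 17 higher, with both values at the limit 6 and 18, at 1.5-fold 43 and 63, and at 3-fold 7 and 15. Neither arm is in the counts at the 75th percentile or with both values at the limit. The Pam212 reading of 3p, 9.66, is under that percentile, 11.0, and its LY-1 reading, 1.75, is under 2.26. The 5p arm is dimmer on both arrays. Other settings kept both counts within 1.5 times.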
